A study of Mus musculus with 6 samples.

Results

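The Hoxc cluster is 1 of the 4 mouse Hox clusters. Its 9 protein-coding genes, Hoxc4, Hoxc5, Hoxc6, Hoxc8, Hoxc9, Hoxc10, Hoxc11, Hoxc12 and Hoxc13, were taken by symbol from the 35591 rows of the deposited table, and each was found. RNA had been sequenced from the tailbud, which contains the presomitic mesoderm, of mouse embryos with 8 somites on the FVB/NJ background. The control group was 3 Smchd1+/+ embryos (called WT here), and the other group was 3 embryos homozygous for MommeD43 (Smchd1MommeD43/MommeD43), a germline missense allele of the chromatin protein SMCHD1 that came from a chemical mutagenesis screen for silencing of a reporter transgene. By the study's methods the line was bred away from that transgene. Each group held 1 male, replicate 1, and 2 females. By the labels the males of both groups came from the same mother, and the 4 females each from another mother. By the study's methods the embryos were at E8.5 (embryonic day 8.5).

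Hox genes encode homeodomain transcription factors that give cells along the trunk their position from head to tail. Genes at the 3′ end of a cluster (low numbers) are switched on early and far forward, and genes at the 5′ end (high numbers) late and close to the tail, so that a tailbud with few somites is at an early point of this sequence. SMCHD1 silences clustered genes and lies on the Hox clusters, and the comparison of both groups asks whether the allele changes Hox transcription in the tissue that forms the vertebral column. Genes of the Hoxc cluster act in the neck, thorax and lumbar region: Hoxc8 patterns the thorax, and the group 10 genes suppress ribs in the lumbar region.

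The cluster spans 116 kb of chromosome 15 in GRCm38, from the start of Hoxc13 at 102921103 to the end of Hoxc4 at 103036852, and each of the 9 genes lies on the plus strand. The annotated spans of the genes do not simply follow each other. Hoxc5 is annotated from 102967443 to 103017429, since a noncoding transcript of it starts inside the first exon of Hoxc10 and runs across Hoxc9, Hoxc8 and Hoxc6. The stretch in question (chr15:102967443-102967608, GRCm38, plus strand) has 166 bases. It makes up 8.70% of the merged exons of Hoxc10, where it is coding, and 5.37% of those of Hoxc5. It is shown because it is the only sequence that the exons of any pair of Hoxc genes have in common.
Hoxc10 and Hoxc5: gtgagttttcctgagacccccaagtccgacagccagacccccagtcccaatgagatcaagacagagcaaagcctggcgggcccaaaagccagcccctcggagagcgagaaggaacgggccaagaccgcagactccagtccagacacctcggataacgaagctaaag
Of the distinct 75-base words in its transcripts, 94 were shared between Hoxc5 and Hoxc10, or 3.12% and 5.12% of them. How the counting assigned such reads, and whether it used the strand, is not given in the sources used here. Reads of these libraries had 75 bases. Among the other Hoxc genes, 7 of 2353 words of Hoxc9 were shared with Gm29455, and Hoxc4, Hoxc6, Hoxc8, Hoxc11, Hoxc12 and Hoxc13 had 0 words in common with any other annotated gene.

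The homeobox, the 180 bases that encode the homeodomain, is the part that the members share by descent, and it could in principle let a read of one gene match another. It is printed for Hoxc8, the gene with the highest level, and for its 5′ neighbours Hoxc9 and Hoxc10, 5′ to 3′ on the plus strand of GRCm38 (chr15:102992571-102992750, chr15:102983930-102984109 and chr15:102970848-102971027). Capitals mark bases that differ from Hoxc8.
Hoxc8: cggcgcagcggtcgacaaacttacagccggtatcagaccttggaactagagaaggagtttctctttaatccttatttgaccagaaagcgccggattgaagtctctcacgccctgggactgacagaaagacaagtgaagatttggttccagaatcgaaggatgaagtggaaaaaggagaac
Hoxc9: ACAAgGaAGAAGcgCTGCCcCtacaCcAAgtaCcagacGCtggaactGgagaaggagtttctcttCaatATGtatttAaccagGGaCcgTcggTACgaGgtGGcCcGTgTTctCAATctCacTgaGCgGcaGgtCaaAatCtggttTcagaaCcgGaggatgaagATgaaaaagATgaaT
Hoxc10: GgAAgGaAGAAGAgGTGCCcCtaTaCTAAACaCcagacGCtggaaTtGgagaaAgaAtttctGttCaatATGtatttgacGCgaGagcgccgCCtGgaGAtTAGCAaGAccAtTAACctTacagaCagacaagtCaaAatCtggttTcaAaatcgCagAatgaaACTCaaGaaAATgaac
Hoxc9 differed from Hoxc8 at 64 of the 180 bases and Hoxc10 at 72. Over the 36 pairs that the 9 genes form, identity of the homeobox ranged from 48.3% to 77.8%, with the highest value for Hoxc5 and Hoxc6. The longest identical run in any pair was 20 bases, shorter than a read.

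Library totals, recovered from the values, ranged from 10957916 to 47298348 reads, a ratio of 4.32. MommeD43 replicate 2 was the deepest and MommeD43 replicate 1 the shallowest. The tailbud label was examined first: 10 of 10 markers of tailbud and presomitic mesoderm were detected in the 6 libraries, among them T at 117 to 188 RPKM (reads per kb of exon, scaled to library size). The source field of the labels names neural stem cells instead, and of the 5 markers listed for these cells 3 were detected in the 6 libraries, with Nes at 10.4 to 12.1 RPKM, Sox9 at 1.74 to 2.54 RPKM and Fabp7 at 0.778 to 3.76 RPKM. Olig1 was without a read in any library, and Gfap was at or below 0.0181 RPKM. The tissue name of the labels is used here. In the comparison of both groups with limma over 13617 autosomal genes, the number past an adjusted p of 0.05 was 0 (0%), and 327 had an unadjusted p below 0.05.

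Along the cluster, levels in the tailbud were highest at its 3′ end and centre and low or below detection at its 5′ end. Hoxc8 and Hoxc4 had the highest levels, with means of 51.6 and 38.96 RPKM over the 6 libraries, followed by Hoxc6 with 20.6, Hoxc5 with 8.49, Hoxc9 with 6.17 and Hoxc10 with 3.06 RPKM. Hoxc11 was at 0.373 and Hoxc13 at 0.0718 RPKM, and Hoxc12 had no read in any library.

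**Figure D1:**
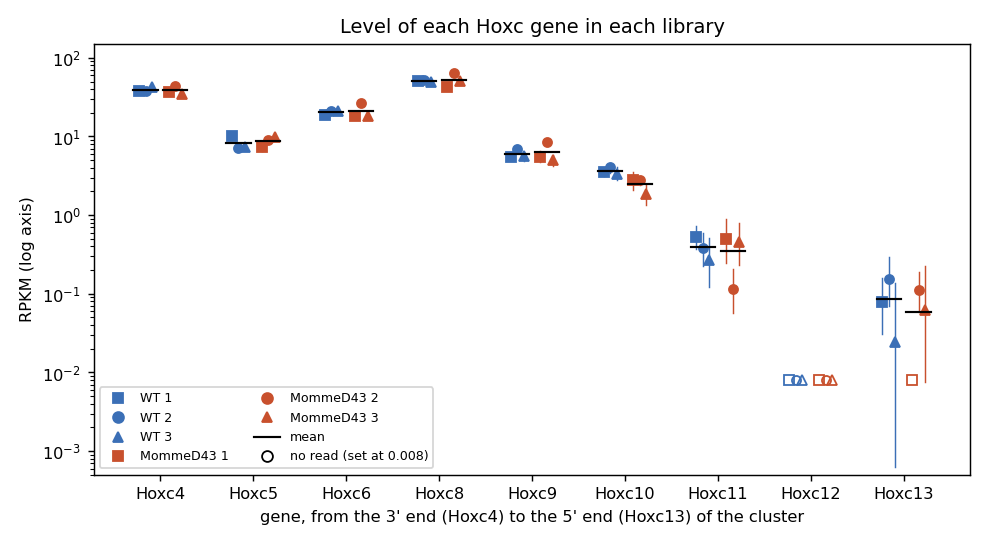
RPKM (log axis) of the 9 Hoxc genes in each library, from the 3′ to the 5′ end of the cluster; symbols are replicates, thin lines are exact 95% confidence intervals from read counts, bars are group means, and open symbols are libraries without a read, set at 0.008. Hoxc8 sits highest at 42.8 to 64.7 RPKM, Hoxc10 is the gene whose MommeD43 libraries lie below each WT library, and Hoxc12 has open symbols only.

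The order of the levels was the same in each library down to Hoxc11. Hoxc8 was above Hoxc4 in 6 of 6 libraries, by 0.40 ± 0.15 on the log2 scale (SD, n = 6), and Hoxc4 was above Hoxc6 in 6 of 6 by 0.92 ± 0.11. Hoxc6 was above Hoxc5 by 1.28 ± 0.33 and Hoxc9 above Hoxc10 by 1.03 ± 0.41, again in 6 of 6. The pair that lay closest relative to its spread was Hoxc5 and Hoxc9, with a difference of 0.47 ± 0.40 and a range over libraries of 0.03 to 0.98. Between neighbours of the cluster, Hoxc8 was above Hoxc9 by 3.08 ± 0.18 and Hoxc10 above Hoxc11 by 3.15 ± 0.92, both in 6 of 6 libraries. The levels did not follow the positional order throughout. Hoxc5 was 4.62-fold below Hoxc4 and was also below Hoxc6 and Hoxc8 on its 5′ side. Hoxc4 and Hoxc6 were likewise below Hoxc8 in 6 of 6 libraries.

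**Figure D2:**
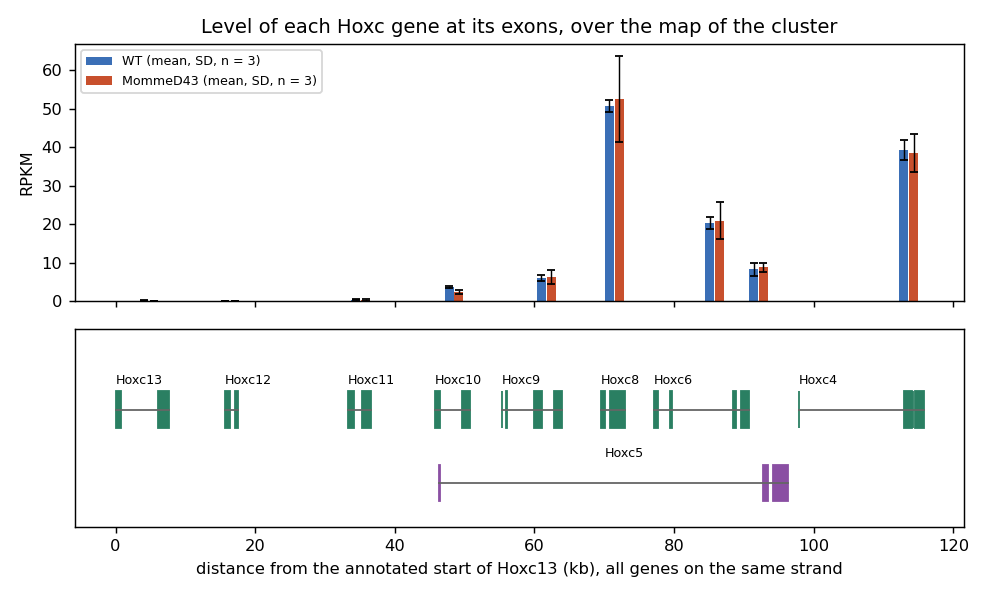
Upper panel, mean RPKM with SD (n = 3 per group) of each Hoxc gene, placed at the centre of its exons; lower panel, merged exons (boxes) and annotated spans (lines) against the distance in kb from the start of Hoxc13. The levels are near 0 over the 5′ part, highest at Hoxc8, and the span of Hoxc5 (purple) begins inside Hoxc10.

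Hoxc4 to Hoxc8 form the 3′ side of the cluster. Hoxc4, a group 4 gene of the cervical region, was at 37.9, 37.9 and 42.3 RPKM in WT replicates 1, 2 and 3, and at 36.5, 44.2 and 34.99 RPKM in the MommeD43 replicates. The groups overlapped, and both the highest and the lowest library were MommeD43. In limma the log2 fold change (MommeD43 against WT) of Hoxc4 was -0.04 with an SE of 0.09, a 95% interval of -0.25 to 0.18 and an adjusted p of 0.999, the value that each of the 7 tested members had.

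Hoxc5, which acts in the same region, was at 10.1, 7.15 and 7.42 RPKM in WT and at 7.42, 9.0 and 9.84 RPKM in MommeD43 embryos. WT replicate 1 was the highest library, WT replicate 2 the lowest, and the groups overlapped. Its log2 fold change was 0.10 ± 0.15, with an interval of -0.26 to 0.45.

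Hoxc6, a gene of the transition from neck to thorax, was at 18.7, 21.1 and 21.2 RPKM in WT and at 18.5, 26.5 and 17.96 RPKM in MommeD43 embryos. Hoxc8 was at 51.0, 52.0 and 49.0 RPKM in WT and at 42.8, 64.7 and 50.02 RPKM in MommeD43 embryos. For both genes MommeD43 replicate 2 was above the other libraries and the groups overlapped, with log2 fold changes of 0.02 ± 0.14 and 0.03 ± 0.13 and intervals of -0.30 to 0.35 and -0.27 to 0.33. Changes of Hoxc8 by more than 1.26-fold upward or to less than 0.829 of the WT level lie outside that interval.

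The SD of log2 RPKM differed between groups for these genes, but rests on 3 embryos each. It was 0.04 in WT and 0.30 in MommeD43 for Hoxc8, 0.11 and 0.31 for Hoxc6, and 0.09 and 0.18 for Hoxc4. For Hoxc5 it was larger in WT, at 0.28 against 0.21. Hoxc4, Hoxc6, Hoxc8 and Hoxc9 were each highest in MommeD43 replicate 2, by 0.19, 0.37, 0.34 and 0.48 above their mean log2 RPKM over the 6 libraries. That is also the deepest library, and the part of depth in this was not tested. Without it the log2 fold changes of Hoxc6, Hoxc8 and Hoxc9 turned negative, at -0.16, -0.13 and -0.18.

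Hoxc9 begins the posterior part of the cluster, whose genes specify lower thorax, lumbar region and tail. It was at 5.44, 7.0 and 5.57 RPKM in WT (484, 402 and 225 reads) and at 5.56, 8.46 and 5.0 RPKM in MommeD43 embryos (148, 972 and 159 reads). The highest and the lowest library were both MommeD43, and the log2 fold change was 0.05 ± 0.20, with an interval of -0.40 to 0.50.

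Hoxc10, the lumbar gene of the cluster, was lower in each MommeD43 embryo than in each WT embryo. It was at 3.56, 4.04 and 3.37 RPKM in WT replicates 1, 2 and 3, from 249, 182 and 107 reads. In MommeD43 replicates 1, 2 and 3 it was at 2.77, 2.76 and 1.84 RPKM, from 58, 249 and 46 reads. The gap between the groups lay between 3.37 RPKM in WT replicate 3, with an exact 95% confidence interval of 2.76 to 4.07, and 2.77 RPKM in MommeD43 replicate 1, with one of 2.11 to 3.58, so that counting error alone lets these libraries overlap.

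The log2 fold change of Hoxc10 was -0.59 ± 0.18 (SE), or 0.662 of the WT level, with a 95% interval of -1.003 to -0.19. The unadjusted p was 0.00982 and the adjusted p over all autosomal genes was 0.999 (limma), which did not pass. Hoxc10 was the only 1 of the 7 tested members whose groups did not overlap. Over the autosomal genes tested this held for 7.08%, with 3.55% lower and 3.53% higher in MommeD43. It was also the only 1 of 7 with an unadjusted p below 0.05, against 2.4% of autosomal genes, of which 0.977% were lower and 1.42% higher. With 7 genes, 1 such gene is a description of Hoxc10 and no result about the cluster. In bulk tissue fewer cells that transcribe a gene and less RNA per cell cannot be told apart.

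**Figure D3:**
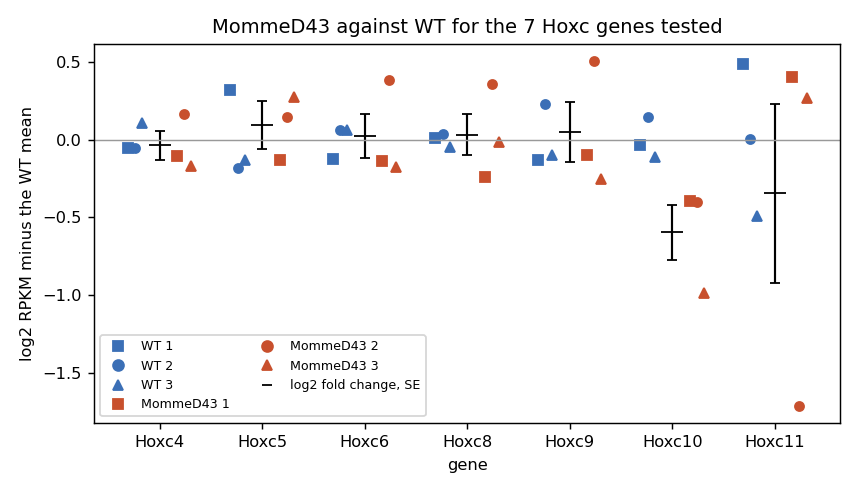
Log2 RPKM of each library minus the WT mean (symbols), with the log2 fold change and its standard error from limma (black), for the 7 Hoxc genes tested. The MommeD43 symbols of Hoxc10 lie below each of its WT symbols, whereas the symbols of the other 6 genes overlap; Hoxc11 has the widest spread.

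The level of Hoxc10 was also read against its neighbours and the summed cluster within each library, which removes the scaling of the library. This reading was chosen after the values were seen, and it uses the same libraries as the fold change. The ratio of Hoxc10 to Hoxc9 in RPKM was 0.655, 0.576 and 0.605 in WT and 0.499, 0.326 and 0.368 in MommeD43 embryos. As a percentage of the summed RPKM of the 9 genes, Hoxc10 made up 2.80%, 3.11% and 2.61% in WT and 2.43%, 1.77% and 1.53% in MommeD43 embryos. The ratio to Hoxc9 and the share of the sum left the groups apart, as the Hoxc10 values in them already did. Against its 5′ neighbour Hoxc11, which held few reads, the groups overlapped. There the log2 difference of Hoxc10 minus Hoxc11 was 3.28 ± 0.47 in WT and 3.03 ± 1.37 in MommeD43 (SD, n = 3). Hoxc8 made up 37.9% to 40.1% of that sum in WT and 37.5% to 41.6% in MommeD43 embryos, so that its share overlapped.

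**Figure D4:**
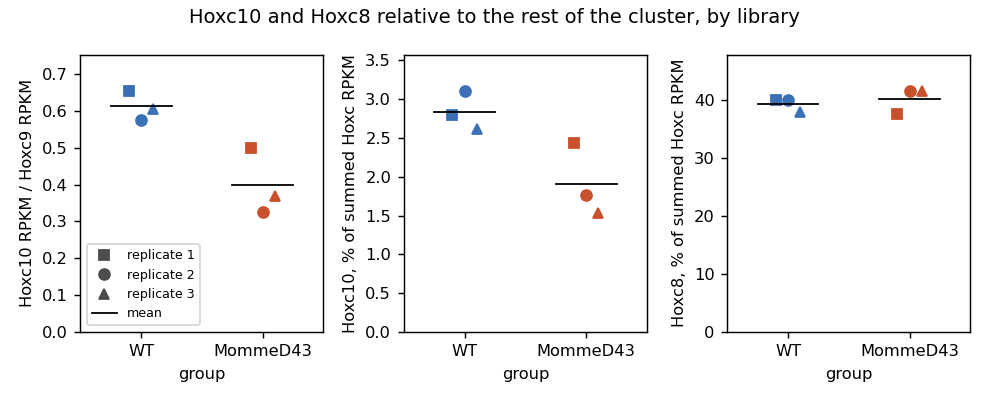
Ratio of Hoxc10 to Hoxc9 (left), Hoxc10 as a percentage of the summed RPKM of the 9 Hoxc genes (centre) and Hoxc8 as the same percentage (right) by group; symbols are replicates and lines are means of 3. The ratio lies between 0.576 and 0.655 in WT and between 0.326 and 0.499 in MommeD43, and the share of Hoxc8 overlaps between groups.

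Markers of other tissues varied between the dissections. The 6 genes of the yolk sac and visceral endoderm list summed to 97.3 to 199 RPKM in WT. In MommeD43 replicates 1, 2 and 3 they summed to 325, 34.3 and 26.2 RPKM. Of these genes 6 of 6 had a log2 fold change below 0 (median -1.11), although the sum of MommeD43 replicate 1 was above each WT sum. The 5 primitive blood genes summed to 5.47 to 469 RPKM in WT and 13.4 to 208 RPKM in MommeD43, with 4 of 4 tested genes below 0 (median -1.15). Gata1 of this list was without a read in 3 libraries. The 4 notochord genes summed to 9.75 to 16.7 RPKM in WT and 6.96 to 14.7 RPKM in MommeD43, with 4 of 4 below 0 (median -0.15). Noto, a gene of the node and early notochord, was at 0.0954 RPKM in MommeD43 replicate 3 against 3.44 to 6.23 RPKM in the other libraries. Hoxc10 was lowest in that replicate as well, and so were Hoxc4, Hoxc6 and Hoxc9. Of the 5 endothelial genes, 4 were above 0 (median 0.39) and Tie1 had an unadjusted p of 0.0351, with sums of 21.4 to 37.0 RPKM in WT and 30.1 to 39.2 RPKM in MommeD43. Summed levels overlapped between the groups for each of these lists, and also for somite, neural tube, hindgut and lateral mesoderm markers. Of the 10 tailbud and presomitic mesoderm genes, 5 were above 0 and 5 below (median 0.01). Hes7 of that list was at 0.47 ± 0.20 (SE), with an unadjusted p of 0.0441 (limma). In none of these lists did a gene pass an adjusted p of 0.05 (limma). The part of other tissues in the level of Hoxc10 was not tested.

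Hoxc11, Hoxc12 and Hoxc13, the genes of the sacral and tail region, were close to the limit of detection. Hoxc11 held 39, 18 and 9 reads in WT and 11, 11 and 12 reads in MommeD43 embryos, or 0.527, 0.377 and 0.268 RPKM and 0.497, 0.115 and 0.454 RPKM. The 11 reads of MommeD43 replicate 2 came from the deepest library and gave the lowest level. Its log2 fold change was -0.35 ± 0.58 (SE), with an interval of -1.67 to 0.98, and it was 0.34 without MommeD43 replicate 2.

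Hoxc13 held 7, 9 and 1 reads in WT and 0, 13 and 2 reads in MommeD43 embryos and was not tested. Its level over the group was 0.0899 RPKM in WT, with an exact interval of 0.0524 to 0.144, and 0.0854 RPKM in MommeD43, with one of 0.0478 to 0.141. In MommeD43 replicate 2 its 13 reads could not be told from the 11 reads of Hoxc11, with intervals of 0.0595 to 0.191 and 0.0574 to 0.206 RPKM.

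Hoxc12 had 0 reads in each library. The floor of 3 reads was 0.0379 RPKM in the WT group (76860433 reads) and 0.0408 RPKM in the MommeD43 group (71344475 reads). The exact 95% intervals reached up to 0.0466 RPKM in WT and 0.0502 RPKM in MommeD43. The antisense RNA Hotair, between Hoxc12 and Hoxc11, had 4 reads in WT replicate 1 and none elsewhere. Intervals and floors cover counting error only.

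Over the 7 members tested, 0 passed an adjusted p of 0.05 in limma, and 0 did so with voom on recovered reads, where 1 had an unadjusted p under 0.05. Fold changes were above 0 on the log2 scale for 4 members and below 0 for 3, with a median of 0.02 against 0.00 over all autosomal genes tested. The members Hoxc4 to Hoxc8 had a median of 0.03. Hoxc9, Hoxc10 and Hoxc11 had a median of -0.35, which is the value of Hoxc11 and rests on its few reads.

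The genotype effect was compared between the male pair, which shares a mother, and the 4 females. The male pair has 1 library per genotype, so that the errors and p-values of this comparison rest on the spread among the females. Hoxc10 had log2 fold changes of -0.71 in females and -0.36 in the male pair, signs that the absence of overlap between the groups already fixes. Their difference of -0.35 ± 0.37 (SE) did not pass (adjusted p = 0.743, limma). Hoxc5 had opposite signs, with 0.37 in females and -0.45 in the male pair. This difference of 0.82 ± 0.15 had an unadjusted p of 0.00122 and an adjusted p of 0.129 (limma), where 0.272% of autosomal genes passed. Sex and mother cannot be told apart.

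The members were set beside their paralogues, the genes of the same number in the other clusters, which encode proteins of like DNA binding. In groups 4 to 8 the Hoxc gene was at or near the highest level. Hoxc4 was above Hoxa4 (8.17-fold) and Hoxb4 (3.43-fold) in 6 of 6 libraries and above Hoxd4 in 5 of 6. Hoxc8 was above Hoxd8 in 6 of 6 libraries (5.31-fold) and above Hoxb8 in 4 of 6 (1.12-fold). Hoxc6 was above Hoxa6 in 6 of 6 (13.7-fold) and above Hoxb6 in 3 of 6, so that Hoxc6 and Hoxb6 could not be ranked.

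From group 9 onward this was different. Hoxc9 was below Hoxa9, Hoxb9 and Hoxd9 in 6 of 6 libraries, at 6.17 RPKM against 16.3, 133 and 16.5 RPKM. Hoxc10 was above Hoxd10 in 6 of 6 libraries and above Hoxa10 in 1 of 6. Hoxc11 was below Hoxa11 in 6 of 6 and above Hoxd11 in 4 of 6. Hoxc13 was below both Hoxa13, at 1.09 RPKM, and Hoxd13, at 1.71 RPKM, in 6 of 6 libraries. It was above Hoxb13, which held 5 reads in all (0.0112 RPKM), in 5 of 6.

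**Figure D5:**
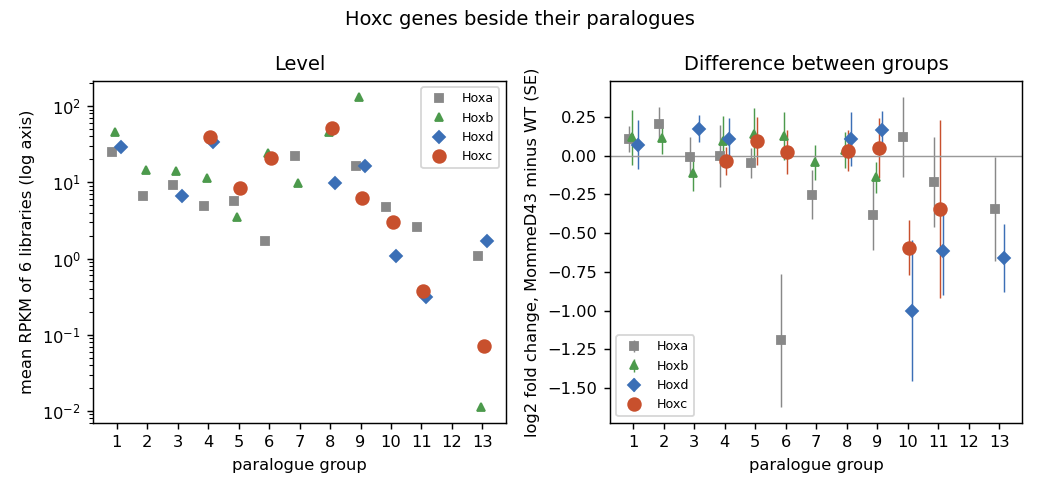
Mean RPKM over 6 libraries (left, log axis, genes with at least 1 read) and log2 fold change of MommeD43 against WT with its standard error (right, genes tested) of Hox genes by paralogue group, with Hoxc in red. Hoxc4 and Hoxc8 lie at or near the top of their groups and Hoxc9 lowest in group 9; at the right, most Hoxc points lie near 0 and Hoxc10 lies at -0.59.

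Of the 20 genes of these paralogue groups in the other clusters, 18 were tested and 0 passed an adjusted p of 0.05 (limma), and 2 (Hoxa6 and Hoxd13) had an unadjusted p below 0.05. Of these 18, 8 had a log2 fold change above 0 and 10 below 0, with a median of -0.03. As for Hoxc10, the groups did not overlap for 3 of the 18, Hoxd10, Hoxd11 and Hoxd13, each lower in MommeD43, beside the 3.55% of all autosomal genes given above. Of the other genes of group 10, Hoxd10 was at -1.001 ± 0.45 (SE) and Hoxa10 at 0.12 ± 0.26.

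Around the cluster, 11 further genes lay within 200 kb, of which 4 were tested and 0 passed, with none at an unadjusted p under 0.05. Cbx5, which encodes a heterochromatin protein, had the highest level at 85.0 RPKM and a log2 fold change of -0.12 ± 0.10 (SE). Calcoco1, at 6.24 RPKM, had -0.10 ± 0.09, and Smug1, a DNA repair enzyme at 3.99 RPKM, had 0.01 ± 0.14. The unclassified transcript 5730585A16Rik, 21.4 kb beyond Hoxc4, was at 3.36 RPKM and had 0.26 ± 0.15.

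Of 15 regulators of the axis that act upstream of Hox genes, 14 were tested (Cdx4 is X-linked), 0 passed and 0 had an unadjusted p under 0.05, with log2 fold changes from -0.09 to 0.19. The ends of this range were Lin28b at -0.09 ± 0.07 (SE) and Cdx1 at 0.19 ± 0.33. Wnt3a was at -0.09 ± 0.26, and the errors of Cdx1 and Wnt3a leave room for sizeable differences. Cdx2, a caudal factor that activates Hox genes, was at -0.02 ± 0.09 (SE), and Gdf11, a signal that times the posterior Hox genes, was at 0.04 ± 0.15. Of the 6 Pbx and Meis cofactors, with which HOX proteins bind DNA, 0 passed, and the values ranged from -0.01 to 0.16.

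Genes whose log2 RPKM followed that of a member most closely over the 6 libraries were also listed, from 10680 autosomal genes with a mean of at least 1 RPKM. For Hoxc8 these were Wasf1, Mxd1 and Tpgs1 (Pearson's r of 0.980, 0.979 and 0.978), and for Hoxc10 they were Lyplal1, Gm10320 and Polq (0.992, 0.990 and 0.989). The points share libraries and depth, and with 6 points among so many genes such values are a description.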

How the data were processed

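Tailbud RNA of 6 embryos was measured, 3 per group by the labels. According to the study's methods, the authors trimmed reads with TrimGalore and Cutadapt, mapped them with HISAT2 2.0.5 to GRCm38.p6 and quantified genes with SeqMonk. The deposited values are log2 RPKM, which the authors scaled by library size and transcript length. Their mean columns were not used, and 0 columns were unassigned.

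Of 35591 rows, 35555 matched GENCODE M21 (99.4% with identical coordinates), which gave exon lengths. Genes without a read sit at the value of 0.9 read. Whole reads were recovered from RPKM, exon length and library total, and 99.1% of 105817 values above that level were whole within 0.02. These reads gave exact Poisson 95% intervals, and a floor of 3 reads per library or group. Genes were kept with at least 3 libraries at the CPM of 10 reads in a library of median depth and at least 15 reads in all. This left 7 Hoxc genes, and Hoxc12 and Hoxc13 fell out.

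Fold changes are MommeD43 minus WT in log2 RPKM without a pseudocount. The 13617 autosomal genes were fitted in R 4.3.3 by limma 3.58.1 (two-sided) using its trended prior variance and Benjamini-Hochberg adjustment. The sex comparison used a coefficient per sex and genotype. Levels of paralogues and neighbours were compared within libraries and without a test. Members, lists and tests were chosen with earlier results of these data known. The genes named were the 9 members, their paralogues, the 4 neighbours with the highest level, the listed regulators and cofactors, and the 3 genes most like the Hoxc gene with the highest level and the one with the smallest p. The code was tested on simulated data. Python 3.11.15 was used for other steps. Alternatives were other scaling, filters, pseudocounts, covariates, weights and library subsets. By the labels each library comes from its own embryo, and any 2 libraries differed by more than sampling noise (mean chi-square per gene 4.71 to 24.8).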

Additional observations from a re-analysis of the deposited data

How the results depend on the processing

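The absence of overlap between the groups already fixes the negative sign of Hoxc10 in the alternatives. Its log2 fold change ranged over the 17 of them from -0.71 with females alone to -0.40 without MommeD43 replicate 3. Its unadjusted p ranged from 0.00558 to 0.0384 and its adjusted p from 0.524 to 0.99997, so that no alternative called it (limma or voom). No Hoxc gene was called in any alternative. The number of autosomal genes called was 0 in each alternative except females alone, with 10, and 1188 at an unadjusted p under 0.05; that fit has fewer samples. With voom on recovered reads Hoxc4 turned to 0.011, Hoxc11 was at -0.90 and Hoxc9 at 0.24. Hoxc11 was at -0.045 with log2(RPKM + 1). Leaving out 1 library at a time gave -0.14 to 0.031 for Hoxc4, -0.16 to 0.12 for Hoxc6, -0.13 to 0.17 for Hoxc8, -0.18 to 0.20 for Hoxc9 and -0.72 to 0.34 for Hoxc11, with the negative end of Hoxc6, Hoxc8 and Hoxc9 and the positive end of Hoxc11 without MommeD43 replicate 2. Hoxc5 stayed positive, from 0.00 to 0.37 over its alternatives. The median of the 7 Hoxc genes was -0.14 without MommeD43 replicate 2 and ranged up to 0.10 over the fits that left out 1 library. The median of the tested genes among Hoxc9 to Hoxc13 was -0.045 with log2(RPKM + 1), a pseudocount above the level of Hoxc11, and -0.52 with voom. Over the fits that left out 1 library it ranged from -0.69 without MommeD43 replicate 1 to -0.10 without WT replicate 1. With the replicate block, no call changed: 0 Hoxc genes and 0 autosomal genes passed, and Hoxc10 was at -0.59. Number 1 marks the male of the same mother in both groups, whereas numbers 2 and 3 share no mother, and same-numbered WT and MommeD43 libraries had deviations that correlated at -0.03, 0.17 and -0.17, so that the numbers were not treated as pairs. Hoxc11 with the filter of 30 reads could not be fitted, as it fell out. Depth limits Hoxc11 to Hoxc13, which held 0 to 39 reads per library.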
